A study of Xenopus tropicalis with 10 samples.

Results

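The comparison described here sets the regenerating tail tissue of *Xenopus tropicalis* tadpoles, collected 72 hours post amputation (hpa), against the whole tail that the first amputation had removed. It was chosen by the columns of these groups in the deposited table, 4 of the 10 libraries of the series (2 at 72 hpa and 2 of whole tail), and it covered all genes: 17896 of the 26550 in the table passed the filter (2 or more of the 10 libraries with at least 10 normalised reads) and were tested. All animals are labelled as stage 40 tadpoles. The 72 hpa group was labelled as amputated and held the tissue that had regrown by 72 hours. The whole tail group was labelled as control, and the WT of its titles stands for whole tail, not for wild type. The remaining libraries came from tissue beside the wound, taken straight after the first cut (0 hpa, 2 libraries), and from regenerating tails at 6 hpa (1 library), 15 hpa (1 library) and 24 hpa (2 libraries). There was no group of uncut tadpoles as old as those at 72 hpa, so regrowth and 72 hours of further larval age cannot be told apart. The labels give no strain, no number of animals behind a library, nor whether the replicates of a group come from different animals. The p-values therefore measure the spread among these libraries only, and it may be technical.

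A frog tadpole that loses its tail closes the wound with epidermis, recruits leukocytes, and rebuilds spinal cord, notochord, muscle, vessels and fin from the tissues of the stump. Wound epidermis and invading leukocytes are known sources of matrix-degrading proteases and cytokines, while FGF, Wnt, BMP and TGF-beta signals act on the progenitors of the bud. The larval epidermis of *Xenopus* is itself a mixture, holding goblet cells that secrete mucus and lectins, ionocytes that transport ions and multiciliated cells.

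The libraries held 58467586 and 15966579 gene reads at 72 hpa, against 42702439 and 28831033 in whole tail, within a range over the series of 15966579 to 128768239. A count of 3 reads corresponded to 1.85 and 7.29 normalised reads at 72 hpa, against 2.78 and 4.07 in whole tail, and floors and intervals cover counting error only. Markers of organs outside the tail were scarce in both groups: the 30 liver and gut genes in the table took 0.00938% and 0.0115% of reads at 72 hpa, against 0.01% and 0.00956% in whole tail. The 42 kidney, heart, eye and brain genes took 0.0137% and 0.0154% at 72 hpa, against 0.014% and 0.0161% in whole tail. UMOD.3, higher at 72 hpa and described below, belongs to this second list. Sarcomere genes marked the tissue as tail with muscle, but their share of reads split the replicates of each group. It was 0.344% and 1.57% at 72 hpa, against 1.87% and 0.317% in whole tail. In bulk tissue, fewer cells of a type and less RNA per cell cannot be told apart.

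At 72 hpa, 825 genes were higher (4.61% of those tested) and 838 lower (4.68%) than in whole tail at a Benjamini-Hochberg adjusted p under 0.05 in limma over all genes. Of these, 516 were higher and 426 lower by more than 4-fold, and 152 were higher and 108 lower by more than 16-fold. The median log2 fold change over all genes tested was -0.00, and every size below given as rose or fell by is a log2 fold change. Symbols other than locus identifiers were available for 924 of the called genes, 415 higher and 509 lower. The number of calls rested heavily on single libraries. Leaving out 72 hpa replicate 1 gave 520 higher and 737 lower genes, and leaving out 72 hpa replicate 2 gave 176 and 160. Leaving out whole tail replicate 1 gave 155 higher and 78 lower genes, and leaving out whole tail replicate 2 gave 462 and 273. In all 8 fits that each left out a library of a duplicated group, 119 genes were higher and 63 lower. Of the 160 called genes that the naming rule picked, 110 kept their call when 72 hpa replicate 1 was left out and 46 when 72 hpa replicate 2 was. The count was 36 when whole tail replicate 1 was left out and 86 when whole tail replicate 2 was. The genes called in all 8 fits include the leukocyte genes PTPRC, CSF1R and SPI1, the proteases MMP7 and MMP9, and the chaperone CLU among genes that rose, and the globin HBA-L2, the larval keratin XK81A1 and the synaptic genes SNAP25 and SYP among genes that fell. Most of the symbols with most reads were not called: ACTG1, a cytoplasmic actin, had 635912 and 567326 normalised reads at 72 hpa and 475621 and 488217 in whole tail, FTH1, a ferritin chain, had 280020.0 and 369251 and 219604 and 292748 in those groups, and neither they nor COX3, EEF2.1, KRT12 and KRT16 were called.

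**Figure D1:**
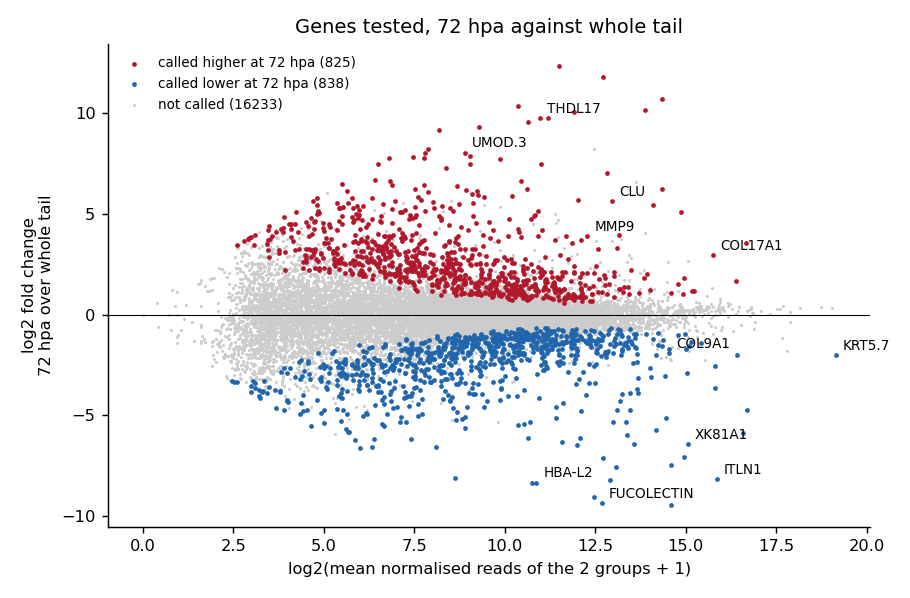
Each point is 1 of the 17896 genes tested, with the log2 fold change of 72 hpa over whole tail on the vertical axis and the log2 mean normalised reads of both groups on the horizontal axis. The 825 genes called higher (red) and the 838 called lower (blue) lie on both sides of 0 across the range of levels, and grey genes were not called.

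Leukocyte genes were higher at 72 hpa. Of 35 tested pan-leukocyte and myeloid genes (37 in the table), 23 rose, none fell and 12 were not called, against 4.61% of all genes higher. All 35 had positive fitted values, and their median log2 fold change was 2.13. PTPRC, the CD45 phosphatase of all leukocytes, had 1736 and 1329 normalised reads at 72 hpa, against 203 and 263 in whole tail (log2 fold change 2.71, SE 0.29, adjusted p = 0.0047). Both 72 hpa libraries thus stood well above both whole tail libraries. CSF1R, the growth factor receptor of macrophages, which is also expressed in pigment cells, had 3966 and 4144 at 72 hpa and 939.6 and 913 in whole tail (log2 fold change 2.13, SE 0.16, adjusted p = 0.0022). Replicates differed little from each other beside the distance between the groups.

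The same list holds subunits of the oxidase that makes the oxidative burst of granulocytes and macrophages. NCF1, a cytosolic subunit of the NADPH oxidase, had 644 and 646 normalised reads at 72 hpa, against 35.2 and 74.6 in whole tail (log2 fold change 3.63, SE 0.41, adjusted p = 0.0053). CYBB, the membrane subunit of the same enzyme, had 1239.7 and 882 at 72 hpa and 429 and 224 in whole tail (log2 fold change 1.75, SE 0.36, adjusted p = 0.029). The groups did not overlap for either subunit, which held for all called genes and for 54.8% of all genes tested. The partner subunit NCF4 rose by 2.81 on the log2 scale. MPO, the peroxidase of neutrophil granules, had 6502 and 3585 normalised reads at 72 hpa and 1197 and 1041 in whole tail (log2 fold change 2.11, SE 0.28, adjusted p = 0.0077). Of the lineage factors, SPI1 (PU.1), which drives myeloid development, had 357 and 306 and RUNX3 120.0 and 185 at 72 hpa, against 60.3 and 40.7 and 1.86 and 9.5 in whole tail (log2 fold change 2.71, SE 0.33, adjusted p = 0.0064 for SPI1; log2 fold change 4.77, SE 0.70, adjusted p = 0.011 for RUNX3). The adhesion receptor chains ITGB2 and ITGAX rose by 3.12 and 2.63. The count of 23 was 12 without whole tail replicate 1 and 11 without 72 hpa replicate 2, while the median stayed between 2.11 and 2.15 in every fit that left out a library.

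Of 31 tested lymphocyte and antigen presentation genes (40 in the table), 13 rose, none fell and 18 were not called, against 4.61% of all genes higher. Their median log2 fold change was 2.01. CD74, the invariant chain that escorts MHC class II molecules, had 182 and 221 normalised reads at 72 hpa, against 8.35 and 24.4 in whole tail (log2 fold change 3.71, SE 0.59, adjusted p = 0.013). CD28, the costimulatory receptor of T cells, had 187 and 189.6 at 72 hpa and 20.4 and 17.6 in whole tail (log2 fold change 3.25, SE 0.43, adjusted p = 0.0077). PRF1, the pore-forming protein of cytotoxic cells, had 132 and 109 at 72 hpa and 1.86 and 2.71 in whole tail (log2 fold change 5.22, SE 0.74, adjusted p = 0.0092), where it rested on 4 reads over both libraries. CD3E, a subunit of the T cell receptor complex, had 221 reads over both 72 hpa libraries and 1 over both whole tail libraries, a ratio of 198 with an exact 95% interval of 35.1 to 7845 (limma adjusted p = 0.012). IL7R, the interleukin-7 receptor, had 119 reads at 72 hpa and 3 in whole tail, a ratio of 35.5 with an interval of 11.8 to 174 (adjusted p = 0.027). MS4A1, the B cell antigen CD20, rose by 2.01 (SE 0.36, adjusted p = 0.018), and the kinase JAK3 by 3.52 (SE 0.38, adjusted p = 0.0047). This count was less firm than that of the myeloid list: 13 became 2 without whole tail replicate 1, 2 without 72 hpa replicate 2, 7 without 72 hpa replicate 1 and 9 without whole tail replicate 2, with medians between 1.61 and 2.30.

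Inflammatory cytokines and their feedback genes had 8 of 31 tested members higher (25.8%, against 4.61% of all genes) and 1 lower (3.23%, against 4.68%). Their median was 1.42, with 28 positive values. IL1B, a cytokine of activated myeloid cells, had 1470.4 and 5514 normalised reads at 72 hpa, against 71.4 and 128 in whole tail (log2 fold change 4.88, SE 0.65, adjusted p = 0.0077). IL1R1, its receptor, had 1057 and 2518 at 72 hpa and 145 and 338 in whole tail (log2 fold change 2.88, SE 0.60, adjusted p = 0.029). IL6ST, the shared signalling chain of the interleukin-6 family, had 3462 and 3279 and OSMR, which pairs with it to bind oncostatin M, had 3583 and 3517 at 72 hpa. In whole tail they had 764 and 629.5 and 58.4 and 218, and the log2 fold changes were 2.28 (SE 0.23, adjusted p = 0.0043) and 4.96 (SE 0.54, adjusted p = 0.0049). STAT3.1, a copy of the factor that acts below these receptors, rose by 1.84 and SOCS1, a feedback inhibitor, by 2.07. CXCL14, a chemokine made in epithelia, was the list member that fell, with 1489 and 527 normalised reads at 72 hpa and 8928 and 9442 in whole tail (log2 fold change -3.37, SE 0.45, adjusted p = 0.0077). The count of 8 higher members was 1 without whole tail replicate 1, 3 without 72 hpa replicate 2 and 12 without 72 hpa replicate 1.

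Among 31 tested complement, coagulation and acute phase genes (45 in the table), 6 rose (19.4%, against 4.61% of all genes) and 2 fell (6.45%, against 4.68%). The median was 0.38. C3, the central complement protein, had 47442 and 37150.1 normalised reads at 72 hpa and 15206 and 13883 in whole tail (log2 fold change 1.53, SE 0.20, adjusted p = 0.0077). C8G, a chain of the terminal complement complex, had 704 and 875 at 72 hpa and 53.8 and 48.8 in whole tail (log2 fold change 3.91, SE 0.42, adjusted p = 0.0047). F3, the tissue factor that starts coagulation, rose by 1.83 (SE 0.35, adjusted p = 0.023). KNG1, the kininogen precursor, fell by 1.84 (SE 0.44, adjusted p = 0.041), and SERPINF1, an antiangiogenic serpin, fell by 1.3 (SE 0.29, adjusted p = 0.034). The 6 rises were 3 without whole tail replicate 1 and 3 without 72 hpa replicate 2, and the 2 falls were 0 without either replicate of whole tail, 72 hpa or 0 hpa.

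**Figure D2:**
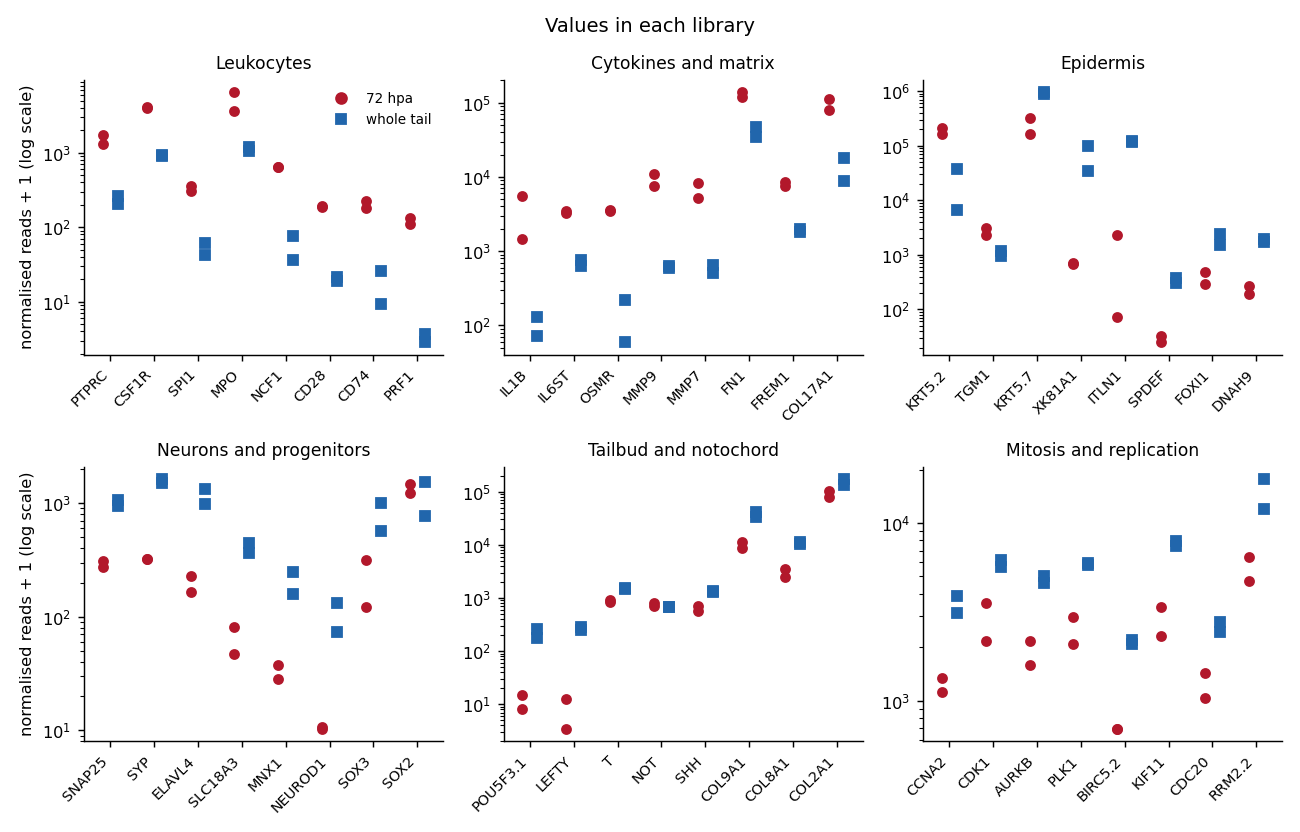
Each point is the normalised read count plus 1 of a gene in 1 library, on a log axis, with 72 hpa (red circles, left) and whole tail (blue squares, right) for 8 genes in each of 6 groups. Leukocyte, cytokine and protease genes lie higher at 72 hpa, neuronal and mitotic genes lie lower, and SOX2 and NOT overlap between the groups or nearly so.

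Several genes of matrix breakdown rose. Of 29 tested matrix proteases and inhibitors, 5 rose (17.2%, against 4.61% of all genes) and 1 fell (3.45%, against 4.68%), and the median was 0.46. MMP9, a gelatinase of wound epidermis and leukocytes, had 11022 and 7658 normalised reads at 72 hpa, against 631 and 593 in whole tail (log2 fold change 3.91, SE 0.28, adjusted p = 0.0022). MMP7, a small metalloprotease of epithelia, had 8391 and 5274 at 72 hpa and 645 and 506 in whole tail (log2 fold change 3.54, SE 0.26, adjusted p = 0.0022). MMP14, a membrane-bound collagenase, rose by 1.15, MMP11 by 1.95 and the plasminogen activator PLAT by 1.5, while MMP17 fell by 1.42. The 5 rises were 3 without whole tail replicate 1 and 3 without 72 hpa replicate 2, and the fall was lost without whole tail replicate 1 or either 72 hpa replicate. A locus identifier that RefSeq names mmp13l (LOC100490019), chosen after its values were seen, rose as well. It had 31313 and 52590.1 normalised reads at 72 hpa, against 7.42 and 67.8 in whole tail (log2 fold change 10.72, SE 1.33, adjusted p = 0.0065). LOC100494738, which RefSeq names mmp9.2 and which was also chosen after its values were seen, rose too, with 829.8 and 1859 at 72 hpa and 12.1 and 35.3 in whole tail (log2 fold change 5.84, SE 0.78, adjusted p = 0.0078). MMP19-LIKE.2, whose name the list did not match, went the other way (log2 fold change -3.67, limma adjusted p = 0.0043). It too was chosen after its values were seen. Reads of close copies within this family could have been split by the counting.

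Among matrix proteins other than collagens, 6 of 36 tested (42 in the table) rose (16.7%, against 4.61% of all genes) and none fell (median 0.25). ELN1 was not counted, because its name did not match the list symbol ELN. Chosen after its values were seen, it was lower at 72 hpa (log2 fold change -3.7, limma adjusted p = 0.0026). FN1, the fibronectin of provisional wound matrix, had 120608 and 138434 normalised reads at 72 hpa and 46594 and 35032 in whole tail (log2 fold change 1.68, SE 0.29, adjusted p = 0.017). FREM1 and FREM2, which anchor the epidermis to the dermis, rose by 2.06 (SE 0.26, adjusted p = 0.007) and 1.83 (SE 0.26, adjusted p = 0.0097). The matricellular THBS1 rose by 1.06 and the small proteoglycan OGN by 1.59. Of 9 listed fibrillar and basement membrane collagens tested, 1 rose, COL17A1 (11.1%, against 4.61% of all genes), and none fell. COL17A1 encodes the transmembrane collagen of hemidesmosomes, and it had 113945 and 80743 at 72 hpa, against 8729.9 and 17891 in whole tail (log2 fold change 2.94, SE 0.35, adjusted p = 0.0061). Other collagens were not matched to the list and were chosen after their values were seen. COL22A1-LIKE.1 and COL22A1-LIKE.2 rose by 2.23 and 2.05 (limma adjusted p = 0.0084 and 0.0065). The locus that RefSeq names col6a5 (LOC100486063) fell (log2 fold change -2.02, limma adjusted p = 0.0405). The 6 matrix protein rises were 2 without whole tail replicate 1, 3 without whole tail replicate 2, 4 without 72 hpa replicate 1 and 2 without 72 hpa replicate 2.

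Of 40 tested epidermal keratin and junction genes, 3 rose (7.5%) and 3 fell (7.5%), shares near those of all genes (4.61% and 4.68%), and the median was 0.01. KRT5.7, the gene with most reads of all symbols in whole tail, had 318724 and 165892 normalised reads at 72 hpa, against 951507 and 891645 in whole tail (log2 fold change -2.0, SE 0.41, adjusted p = 0.028). KRT5.2 went the other way, with 206327 and 166505 at 72 hpa and 6604 and 37994 in whole tail (log2 fold change 3.55, SE 0.68, adjusted p = 0.023). These are copies of a family. Whether shared reads were split between them, which would make each value uncertain, was not tested. XK81A1, an epidermal keratin of *Xenopus* embryos and larvae, had 696 and 688 at 72 hpa and 100199 and 34879 in whole tail (log2 fold change -6.42, SE 0.70, adjusted p = 0.0048). KRT19 fell by 1.68, and KRT18L rose by 2.28. TGM1, the transglutaminase of the cornified envelope, rose by 1.34 (SE 0.28, adjusted p = 0.029). KRT16 had 166006 and 94100.2 at 72 hpa and 304372 and 258876 in whole tail and was not called (log2 fold change -1.17, adjusted p = 0.12). Without 72 hpa replicate 2 none was higher and 1 lower, without 72 hpa replicate 1 the counts were 1 and 6, and without either whole tail replicate they were 2 and 1.

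Genes of the specialised cells of larval skin were among those that fell: 10 of 31 tested were lower, against 4.68% of all genes, and none higher, with a median of -1.34 and 29 negative values. ITLN1, an intelectin that larval goblet cells secrete onto the skin, had 2319 and 72.9 normalised reads at 72 hpa, against 115788 and 119915 in whole tail (log2 fold change -8.15, SE 1.3, adjusted p = 0.013). ITLN2 had 1410.4 and 51 at 72 hpa and 45876 and 50806 in whole tail (log2 fold change -7.48, SE 1.24, adjusted p = 0.015). Both genes differed widely between the 72 hpa replicates, yet were lower in either of them than in both whole tail libraries. SPDEF, a transcription factor of goblet cells, had 24.1 and 31.6 at 72 hpa and 309 and 376 in whole tail (log2 fold change -3.58, SE 0.71, adjusted p = 0.025). A mucin locus went the other way. RefSeq names it muc5ac (LOC100493765), a symbol of this list, but the locus was not counted in it. Chosen after its values were seen, it had 117 and 418 at 72 hpa and 3.71 and 8.14 in whole tail (log2 fold change 5.08, SE 1.02, adjusted p = 0.026). FOXI1, which specifies ionocytes, had 479 and 287 and 2385 and 1495 at 72 hpa and in whole tail (log2 fold change -2.35, SE 0.55, adjusted p = 0.04), and FOXA1, a factor of small secretory cells in *Xenopus*, fell by 1.45 (SE 0.26, adjusted p = 0.018). Of cilium genes, the dynein DNAH9, the axonemal TEKT2 and the tubulin TUBB4B fell with log2 fold changes of -3.03, -2.01 and -1.48. MYB, a factor of multiciliated cell development, fell by 2.98. The deepest fall of any gene with a symbol was in FUCOLECTIN, a fucose-binding lectin by its name, with 17.3 and 17 at 72 hpa and 18795 and 7399.9 in whole tail (log2 fold change -9.34, SE 0.79, adjusted p = 0.0026). The 10 falls were 0 without whole tail replicate 1, 1 without whole tail replicate 2, 6 without 72 hpa replicate 1 and 2 without 72 hpa replicate 2, with medians between -1.48 and -1.18.

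Neuronal genes were lower at 72 hpa. Of 46 tested genes of differentiated neurons (50 in the table), 23 fell, 1 rose and 22 were not called, against 4.68% of all genes lower. The median was -1.81. SNAP25, a component of the synaptic vesicle fusion machinery, had 306 and 272 normalised reads at 72 hpa, against 1071 and 951 in whole tail (log2 fold change -1.8, SE 0.22, adjusted p = 0.0061). SYP, a synaptic vesicle protein, had 324 and 318 at 72 hpa and 1495 and 1628 in whole tail (log2 fold change -2.28, SE 0.19, adjusted p = 0.0026). For both genes the distance between the groups was far larger than that between replicates. ELAVL4, an RNA-binding protein of neurons, had 229 and 163 at 72 hpa and 1330.1 and 978 in whole tail (log2 fold change -2.56, SE 0.27, adjusted p = 0.0047).

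Several transmitter types were involved. SLC18A3, the vesicular acetylcholine transporter, fell by 2.71 (SE 0.33, adjusted p = 0.0062), and the motor neuron factors MNX1 and ISL1 fell with log2 fold changes of -2.6 and -2.46. SLC32A1, which loads inhibitory transmitters, fell by 2.74, and SLC17A7, which loads glutamate, fell by 2.12. The neurofilament genes NEFM and INA and the intermediate filament gene PRPH of sensory and autonomic neurons fell with log2 fold changes of -2.46, -2.46 and -3.05. GAD1.2, a copy of the enzyme that makes GABA, was the exception, with 111 and 139 normalised reads at 72 hpa and 21.3 and 12.2 in whole tail (log2 fold change 2.86, SE 0.63, adjusted p = 0.033). The rise of GAD1.2 was lost without either replicate of 72 hpa or of whole tail. The 23 falls were 6 without whole tail replicate 1, 14 without whole tail replicate 2, 18 without 72 hpa replicate 1 and 7 without 72 hpa replicate 2, with the median always between -1.91 and -1.56.

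Of 48 tested genes of spinal cord progenitors and patterning (56 in the table), 10 fell (20.8%, against 4.68% of all genes) and none rose. The median was -1.31. The proneural factors NEUROD1, NEUROD4 and NEUROG2 fell with log2 fold changes of -3.22, -3.79 and -2.66. NEUROD1 had 9.27 and 9.72 normalised reads at 72 hpa, against 129.9 and 71.9 in whole tail (SE 0.49, adjusted p = 0.012). SOX3, a progenitor factor, had 315 and 122 at 72 hpa and 1004 and 569.8 in whole tail (log2 fold change -1.95, SE 0.49, adjusted p = 0.048), whereas SOX2, which marks the same progenitors, had 1486 and 1220.0 and 1530.4 and 763 and was not called (log2 fold change 0.32, SE 0.35, adjusted p = 0.6). The values of SOX2 at 72 hpa lay between those of the whole tail libraries. The 10 falls were 0 without whole tail replicate 1, 4 without whole tail replicate 2, 0 without 72 hpa replicate 2 and 6 without either 0 hpa replicate. Among 14 glial and myelin genes, 3 fell (21.4%, against 4.68% of all genes), namely POU3F1, PMP22 and GJB1. PMP22, a peripheral myelin protein, had 2660.0 and 2391 at 72 hpa and 11156 and 7438 in whole tail (log2 fold change -1.85, SE 0.28, adjusted p = 0.011). None of the 3 was called without whole tail replicate 1 or without 72 hpa replicate 2, and 2 were without whole tail replicate 2.

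Notochord and floor plate genes had 7 of 22 tested members lower (31.8%, against 4.68% of all genes) and none higher (median -0.80). These included SHH, the signal that notochord and floor plate secrete, with 693 and 569 normalised reads at 72 hpa and 1292 and 1364 in whole tail (log2 fold change -1.08, SE 0.22, adjusted p = 0.026). COL9A1, a chain of the collagen that decorates type II fibrils in notochord sheath and cartilage, had 11428 and 8555 at 72 hpa and 32724 and 41919 in whole tail (log2 fold change -1.91, SE 0.29, adjusted p = 0.011). Its partner chains COL9A2 and COL9A3 fell with log2 fold changes of -1.63 and -1.28, and COL8A1 and LECT1 (chondromodulin) with -1.87 and -1.92. COL2A1, the main fibril collagen of the sheath, had 104829 and 78826 and 131686 and 172578 at 72 hpa and in whole tail and was not called (log2 fold change -0.73, adjusted p = 0.17). NOT, a homeobox gene of the forming notochord, had 699.9 and 797 at 72 hpa and 685 and 689 in whole tail (log2 fold change 0.12, SE 0.19, adjusted p = 0.74). T (brachyury), a factor of notochord and tailbud, had 898 and 826 at 72 hpa and 1563 and 1463 in whole tail and just missed the threshold (log2 fold change -0.81, SE 0.21, adjusted p = 0.054). The 7 falls were 1 without whole tail replicate 1, 2 without whole tail replicate 2, 4 without 72 hpa replicate 1 and 1 without 72 hpa replicate 2, with medians between -0.87 and -0.66.

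The called genes of the tailbud and of forming somites were all lower at 72 hpa. Of 24 tested (31 in the table), 4 fell (16.7%, against 4.68% of all genes), none rose and the median was -0.41. MESPA and RIPPLY2.1 act where somites form. MESPA had 3 reads over both 72 hpa libraries and 184 over both whole tail libraries, 68.5 times more in whole tail (exact 95% interval 23.1 to 335, limma adjusted p = 0.03). RIPPLY2.1 had 2 reads at 72 hpa and 199 in whole tail, 111 times more in whole tail (interval 30.4 to 925, adjusted p = 0.011). POU5F3.1, a pluripotency factor of the Oct4 family, had 14.2 and 7.29 normalised reads at 72 hpa and 179 and 256 in whole tail (log2 fold change -4.26, SE 0.84, adjusted p = 0.024). MSGN1, a regulator of presomitic mesoderm, had 56.3 and 19.4 at 72 hpa and 520.3 and 149 in whole tail and was not called (log2 fold change -3.03, SE 1.86, adjusted p = 0.34). Without whole tail replicate 1 or 72 hpa replicate 2 none of the list fell, and without whole tail replicate 2 only 1 did. LEFTY, a secreted inhibitor of Nodal signalling, also fell, with 11.7 and 2.43 at 72 hpa and 288 and 248 in whole tail (log2 fold change -5.34, SE 0.67, adjusted p = 0.0069).

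Among growth factor pathways, 11.1% of FGF genes fell, against 4.68% of all genes. Wnt genes were 5.17% higher and 3.45% lower, and TGF-beta and activin genes 7.41% and 3.7%, against 4.61% and 4.68%. BMP, Notch and hedgehog genes were 5.26%, 8% and 4.76% lower, with none higher. Shares for Wnt, BMP and hedgehog genes thus lay near those of all genes. Of 36 FGF genes tested, 4 fell and none rose: FGF14 and FGF13, intracellular factors of neurons (log2 fold changes -4.23 and -3.46), and the secreted ligands FGF3 and FGF4 (-2.16 and -3.99). The secreted ligands FGF20 and FGF8 had higher values in both 72 hpa libraries and were not called, with 337 and 447 and 557 and 695 normalised reads at 72 hpa and 106 and 157 and 349 and 125 in whole tail (log2 fold changes 1.58 and 1.57, adjusted p = 0.077 and 0.084). Of 58 Wnt genes, the ligands WNT6 and WNT7B and the receptor ROR1 rose by 1.6, 1.12 and 2.39, and the ligand WNT8B and the receptor FZD7 fell with log2 fold changes of -2.39 and -1.28. WNT5A had 808 and 702 at 72 hpa and 422 and 493 in whole tail and was not called (adjusted p = 0.13). Of 27 TGF-beta and activin genes, INHBA, the activin A subunit, and LTBP3, which stores latent TGF-beta, rose by 1.8 and 1.63 while LEFTY fell. BMPER, a BMP-binding protein, fell by 2.09, 1 of 2 falls among 38 BMP genes. The other was BMP7.2, with no read at 72 hpa and at least 11.9-fold higher in whole tail, set against 3 reads over the 72 hpa group. The Notch ligand DLC and target HEY1 fell with log2 fold changes of -3.12 and -1.58 among 25 genes, and of 21 hedgehog genes only SHH was called. Without whole tail replicate 1 none of these counts stayed above 0. Without 72 hpa replicate 2, 1 FGF fall, 1 Wnt rise and 1 TGF-beta fall were left, and without whole tail replicate 2 no FGF fall was.

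Among 27 anterior and trunk Hox genes, 25 had negative fitted values (median -0.73) and 1, HOXB5, fell (3.7%, against 4.68% of all genes), by 2.48 (SE 0.52, adjusted p = 0.03). Among 10 posterior Hox genes, 7 were negative (median -0.90) and 1, HOXC11, fell, with 1694 and 1235 normalised reads at 72 hpa and 4869.6 and 4506 in whole tail (log2 fold change -1.7, SE 0.42, adjusted p = 0.048). Neither call held in all fits that left out 1 library. In those fits the median ran from -0.95 to -0.54 for anterior and trunk Hox genes. For posterior Hox genes it ran from -1.17 to -0.63. The group 13 genes, which pattern the tail end, were not called: HOXC13 had 1605 and 1332 at 72 hpa and 3580.3 and 2370.3 in whole tail, and HOXA13 had 1290.4 and 778 and 1268 and 787 in the same groups (adjusted p = 0.19 and 1.0).

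**Figure D3:**
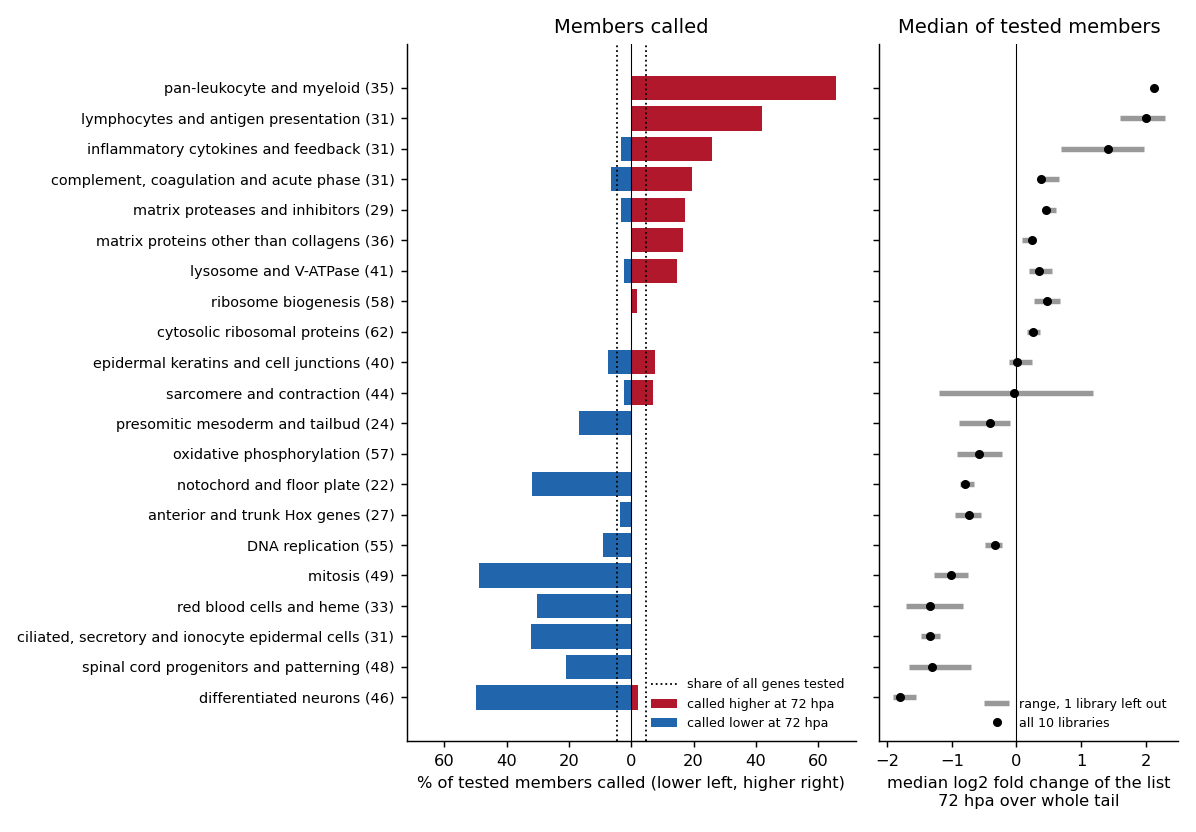
The left panel gives, for 21 gene lists with the number of tested members in parentheses, the percentage called higher (red, right) and lower (blue, left) at 72 hpa against whole tail, with dotted lines at 4.61% and 4.68%, the shares of all genes. The right panel gives the median log2 fold change of each list (black) and its range over 8 fits without 1 library (grey): the sarcomere range spans -1.19 to 1.18, while the leukocyte range spans 2.11 to 2.15. Leaving out a 0 or 24 hpa library cannot move these medians, so only the 72 hpa and whole tail libraries set the ranges.

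Part of the red blood cell genes fell, and among globins the fall was uneven. Of 33 tested red blood cell and heme genes, 10 fell (30.3%, against 4.68% of all genes) and none rose (median -1.33). The list took 0.169% and 0.352% of reads at 72 hpa, against 0.814% and 0.664% in whole tail. HBA-L2, a globin gene outside that list, had 6.8 and 14.6 normalised reads at 72 hpa and 4864 and 2585 in whole tail (log2 fold change -8.33, SE 0.66, adjusted p = 0.0022). HBZ had 173 and 423 at 72 hpa and 30553 and 17319 in whole tail (log2 fold change -6.4, SE 0.60, adjusted p = 0.0034), and HBE1 had 281 and 1609 and 45522 and 27372 in those groups (log2 fold change -5.71, SE 0.80, adjusted p = 0.009). HBA-L3 and HBA-L4, also outside the list and chosen after their values were seen, fell with log2 fold changes of -4.57 and -4.8. The list members HBA-L5, HBA1 and HBA2 fell with -3.09, -6.17 and -4.81. HBG1 had 3 reads at 72 hpa and 196 in whole tail. By contrast, HBA3 had 20285 and 57733 at 72 hpa and 82944 and 73116 in whole tail (log2 fold change -1.19, SE 0.68, adjusted p = 0.31), and HBD had 16841 and 38249 and 53698 and 54175 in those groups (-1.09, SE 0.63, adjusted p = 0.31); neither was called. HBA3 and HBD together, singled out after their values were seen, made up 84% and 81.7% of the reads of 13 globin genes at 72 hpa, against 44.6% and 53% in whole tail. Whether reads were divided among similar globin copies, which would make their values uncertain, was not tested. NGB, neuroglobin, which is a globin of neurons, had 3 reads over both 72 hpa libraries and 281 over both whole tail libraries, 105 times more in whole tail (interval 35.5 to 511, adjusted p = 0.0046). The count of 10 falls was 1 without whole tail replicate 1 and between 7 and 13 without any other library.

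**Figure D4:**
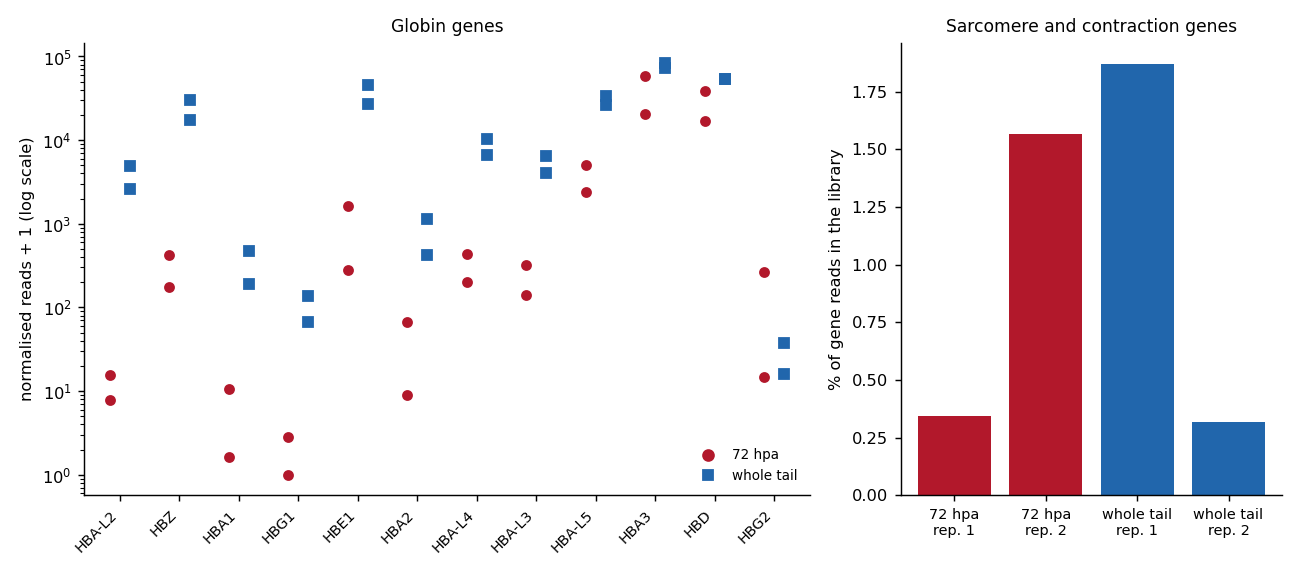
Left: normalised reads plus 1 (log axis) of 12 globin genes in each library at 72 hpa (red circles) and in whole tail (blue squares); HBA3 and HBD stay near the top in all 4 libraries, while HBA-L2 is near the bottom at 72 hpa. Right: the percentage of gene reads that 44 sarcomere and contraction genes took in each library, 0.344 and 1.57 at 72 hpa and 1.87 and 0.317 in whole tail.

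Skeletal muscle could not be ranked between regenerate and tail, because the replicates of each group disagreed. ACTC1, a sarcomeric actin, had 38938 and 172520.0 normalised reads at 72 hpa, against 199128 and 37301 in whole tail (log2 fold change -0.07, SE 0.93, adjusted p = 0.97). MYLPF, the fast muscle light chain, had 12451 and 78758 at 72 hpa and 83951 and 11024 in whole tail (log2 fold change 0.04, SE 1.1, adjusted p = 0.99). The median of the 44 sarcomere genes was -0.03 with all libraries, 1.18 without whole tail replicate 1 and -1.19 without whole tail replicate 2. Of these 44 genes, 3 rose (6.82%, against 4.61% of all genes) and 1 fell (2.27%, against 4.68%), shares near those of all genes. MYH6, a myosin heavy chain, had 430.3 and 219 at 72 hpa and 26 and 13.6 in whole tail (log2 fold change 3.96, SE 0.79, adjusted p = 0.025). TPM2, a tropomyosin, had 70.5 and 158 at 72 hpa and 9.28 and 6.78 in whole tail (log2 fold change 3.58, SE 0.54, adjusted p = 0.011), and TCAP (telethonin) had 285 and 3434 at 72 hpa and 1.86 and 6.78 in whole tail (log2 fold change 7.72, SE 1.27, adjusted p = 0.015). ACTA1, the skeletal actin, had 71.7 and 309 at 72 hpa and 12.1 and 29.8 in whole tail and was not called (adjusted p = 0.07). The 3 rises were 0 without whole tail replicate 1 or 72 hpa replicate 2 and 1 without whole tail replicate 2. CAV3.2, a copy of muscle caveolin, fell by 0.85 (SE 0.20, adjusted p = 0.042). Of 15 myogenic regulators none was called; MYOD1 had 64.9 and 391 and MYF5 331 and 510.4 at 72 hpa, against 346 and 76 and 1584 and 365 in whole tail.

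Mitotic genes were lower at 72 hpa. All 49 tested had negative fitted values (median -1.02), 24 fell and none rose, against 4.68% of all genes lower. CCNA2, the cyclin of S phase and mitotic entry, had 1331 and 1123 normalised reads at 72 hpa and 3881 and 3126 in whole tail (log2 fold change -1.51, SE 0.21, adjusted p = 0.0092). BIRC5.2, a copy of survivin of the chromosomal passenger complex, had 693 and 690.2 at 72 hpa and 2179 and 2089 in whole tail (log2 fold change -1.62, SE 0.20, adjusted p = 0.0065). Its partners AURKB, INCENP and CDCA8 fell with log2 fold changes of -1.37, -1.37 and -1.18. The spindle motor KIF11, the kinase CDK1 and the anaphase activator CDC20 fell with -1.46, -1.1 and -1.09. The count of 24 was 1 without whole tail replicate 1, 3 without 72 hpa replicate 2, 9 without whole tail replicate 2 and 31 without 72 hpa replicate 1, while the median stayed between -1.27 and -0.74. Replication genes moved less: 5 of 55 fell (9.09%, against 4.68% of all genes), none rose and the median was -0.33. Among them RRM2.2, a ribonucleotide reductase subunit, had 6430.5 and 4744 at 72 hpa and 17691 and 12001 in whole tail (log2 fold change -1.4, SE 0.29, adjusted p = 0.028). The 5 falls were between 1 and 3 in the fits without each library of a duplicated group, the 0 and 24 hpa libraries included.

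All 62 cytosolic ribosomal protein genes had positive values (median 0.25) and none was called. Of 58 ribosome biogenesis genes, 57 were positive (median 0.47), and RRN3, a factor of RNA polymerase I initiation, rose by 1.04 (SE 0.21, adjusted p = 0.025). No member of that list was called without either replicate of 72 hpa or of whole tail. All 57 oxidative phosphorylation genes were negative (median -0.58) with none called, although the median was -0.22 without 72 hpa replicate 1 and -0.92 without 72 hpa replicate 2. Genes of a complex share their libraries and are not independent replicates. Of 32 tested glycolysis and hypoxia genes, 3 rose (9.38%, against 4.61% of all genes) and 2 fell (6.25%, against 4.68%). Among the falls, LDHB, a lactate dehydrogenase, had 6157 and 11367 normalised reads at 72 hpa and 114472 and 96177 in whole tail (log2 fold change -3.65, SE 0.53, adjusted p = 0.0099). The kinase HK2 and the glucose transporter SLC2A3 rose instead, by 2.15 and 2.77, with TKT of the pentose phosphate pathway by 1.97. None of these calls, that of LDHB included, held without whole tail replicate 1. The rises did not hold without 72 hpa replicate 2 either. Of 41 lysosomal genes, 6 rose (14.6%, against 4.61% of all genes) and 1 fell (2.44%, against 4.68%). CTSC, a protease that activates granule enzymes of leukocytes, had 18180.4 and 19601 at 72 hpa and 3058 and 5442 in whole tail (log2 fold change 2.21, SE 0.29, adjusted p = 0.0077); the count of 6 was 1 without whole tail replicate 1 or 72 hpa replicate 2, and 3 without 72 hpa replicate 1.

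The largest rises with a symbol lay outside most of these lists. THDL17 had 6682 and 1388 normalised reads at 72 hpa, against 0.928 and 5.43 in whole tail (log2 fold change 9.76, SE 1.89, adjusted p = 0.023). CHIT1, a chitinase of macrophages in mammals, had 2562 and 26121 at 72 hpa and 23.2 and 163 in whole tail (log2 fold change 7.02, SE 1.16, adjusted p = 0.015). IFITM3, an interferon-induced membrane protein, had 3089.7 and 3043 at 72 hpa and 26.9 and 57 in whole tail (log2 fold change 6.25, SE 0.54, adjusted p = 0.0026). The 72 hpa libraries differed widely in CHIT1 and little in IFITM3. CLU (clusterin), an extracellular chaperone, had 14041 and 17119 at 72 hpa and 245 and 403 in whole tail (log2 fold change 5.62, SE 0.42, adjusted p = 0.0022). FUT3, a fucosyltransferase, had 371 reads over both 72 hpa libraries and none in whole tail, at least 111-fold higher when set against 3 reads over the whole tail group (adjusted p = 0.0052), and FUT2, a related enzyme, rose by 5.11 (SE 1.2, adjusted p = 0.04). IL12RB1, an interleukin-12 receptor chain, had 205 reads at 72 hpa and 3 in whole tail, a ratio of 61.1 (interval 20.6 to 299). The unconventional myosin MYO1H and the chemokine receptor-like CCRL1 rose by 5.33 and 5.24. C1QTNF3, a secreted C1q-related protein, had 296 reads at 72 hpa and 2 in whole tail, a ratio of 132 (interval 36.3 to 1099). On the other side, the secreted proteoglycan OPTC (opticin) had 26.6 and 24.3 at 72 hpa and 1231 and 640.4 in whole tail (log2 fold change -5.07, SE 0.47, adjusted p = 0.0034), and the growth factor IGF3 had 24.7 and 7.29 and 1347 and 214 in those groups (log2 fold change -5.2, SE 1.06, adjusted p = 0.027). ETV2, a factor of vessel and blood precursors, had 4.33 and 0 at 72 hpa and 238 and 23.1 in whole tail (log2 fold change -5.04, SE 1.23, adjusted p = 0.044), with a wide gap between the whole tail libraries.

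Remaining lists held few calls, to be read beside the shares of all genes, 4.61% higher and 4.68% lower. Of 41 oxidative stress genes, 3 rose and 2 fell, among them the catalase copies CAT, which rose by 2.53, and CAT.1, which fell by 3.42. Whether reads were shared between these copies, which would make both values uncertain, was not tested. CYP1A1, the target gene of the aryl hydrocarbon receptor, fell by 3.96 (SE 0.59, adjusted p = 0.011), and PRDX5, a peroxiredoxin, rose by 3.29 (SE 0.64, adjusted p = 0.023). Of 22 pigment cell genes, PNP, the purine enzyme of iridophores, RAB27A, which tethers melanosomes, and ALX4 fell with log2 fold changes of -1.55, -1.32 and -2.5, while TYR, the melanin enzyme, had 940.5 and 885 normalised reads at 72 hpa and 2181 and 1403 in whole tail and was not called (adjusted p = 0.21). The 1 pigment list member that rose was CSF1R, described with the leukocyte genes, and it did so in each of the 8 fits without 1 library. Of 30 endothelial genes, 2 fell (ETV2 and TAL1), and of 34 immediate early genes, TRIB1 rose by 1.56. FOS had 9344 and 24913 at 72 hpa and 18565 and 60012 in whole tail, EGR1 had 5917 and 8455 and 6709 and 8409 in those groups, and neither was called. BIRC2, an inhibitor of apoptosis, rose among 29 apoptosis genes, 2 of 39 chaperone genes fell, and 1 of 43 lipid genes rose and 3 fell. Of 29 thyroid hormone and clock genes, 2 rose and 2 fell, and of 21 retinoic acid genes 1 rose and 1, LRAT, fell by 2.26. Without whole tail replicate 1 the oxidative stress list kept a count of 1 higher and 1 lower and the pigment list 1 higher and 1 lower, while the falls and rises counted in the other lists of this paragraph were all at 0. Without 72 hpa replicate 2 they were at 0 but for 1 oxidative stress rise, 1 pigment rise, 1 pigment fall and 1 retinoic acid rise, and without 72 hpa replicate 1 the oxidative stress rises numbered 7.

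The 24 hpa libraries were set against the same 2 whole tail libraries, so the 72 and 24 hpa differences share them and are given side by side, with nothing read from their likeness. At 24 hpa, 142 genes were higher (0.793%) and 56 lower (0.313%) than in whole tail in limma. These numbered 2 in all without 24 hpa replicate 1, 3 without 24 hpa replicate 2 and 4 without whole tail replicate 1. Median log2 fold changes against whole tail were 2.13 at 72 hpa and 1.42 at 24 hpa for leukocyte and myeloid genes, and 2.01 at 72 hpa and 0.92 at 24 hpa for lymphocyte genes. Neuronal genes had medians of -1.81 at 72 hpa and -0.99 at 24 hpa, and mitotic genes of -1.02 at 72 hpa and -0.25 at 24 hpa. Spinal cord progenitor genes had medians of -1.31 at 72 hpa and -1.54 at 24 hpa. Whether any single gene stood differently at 72 and 24 hpa was tested directly, and 7 genes were higher (0.0391%) and 6 lower (0.0335%) at 72 hpa, with 1913 at an unadjusted p under 0.05. This count was 2 in edgeR and 539 in DESeq2, and it lay between 1 and 64 in fits without 1 library.

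Among the 13, UMOD.3, a member of the uromodulin family by its symbol, had 481 and 1412 normalised reads at 72 hpa, no read in either 24 hpa library, and 0.928 and 4.07 in whole tail (72 against 24 hpa, limma adjusted p = 0.044). The globin HBA-L2 had 6.8 and 14.6 at 72 hpa and 1551 and 373 at 24 hpa (log2 fold change -6.11, SE 0.66, adjusted p = 0.039). SLC18A1, a vesicular monoamine transporter, had 923 and 763 at 72 hpa and 4227 and 3178 at 24 hpa (-2.13, SE 0.20, adjusted p = 0.025), against 7949 and 7247 in whole tail. DNASE1L3, a secreted nuclease, had 642 and 452 at 72 hpa and 6847 and 4514 at 24 hpa (-3.37, SE 0.37, adjusted p = 0.039). Its whole tail values of 4841 and 2746 lay near those at 24 hpa. Both SLC18A1 and DNASE1L3 were chosen after their values were seen. The locus that RefSeq names trpv4l.3 (LOC100494341), a TRPV4-like channel gene by that name, chosen after its values were seen, fell too, with 21.6 and 24.3 at 72 hpa and 418 and 449 at 24 hpa (adjusted p = 0.0078). FN1 and KRT18L had lower values at 72 hpa than at 24 hpa and the difference was not called: FN1 had 120608 and 138434 at 72 hpa and 304219 and 222884 at 24 hpa (adjusted p = 0.28), and KRT18L had 540.4 and 554 and 3316 and 2843 (adjusted p = 0.11). MMP9 had 11022 and 7658 at 72 hpa and 2327 and 3796 at 24 hpa (adjusted p = 0.15).

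**Figure D5:**
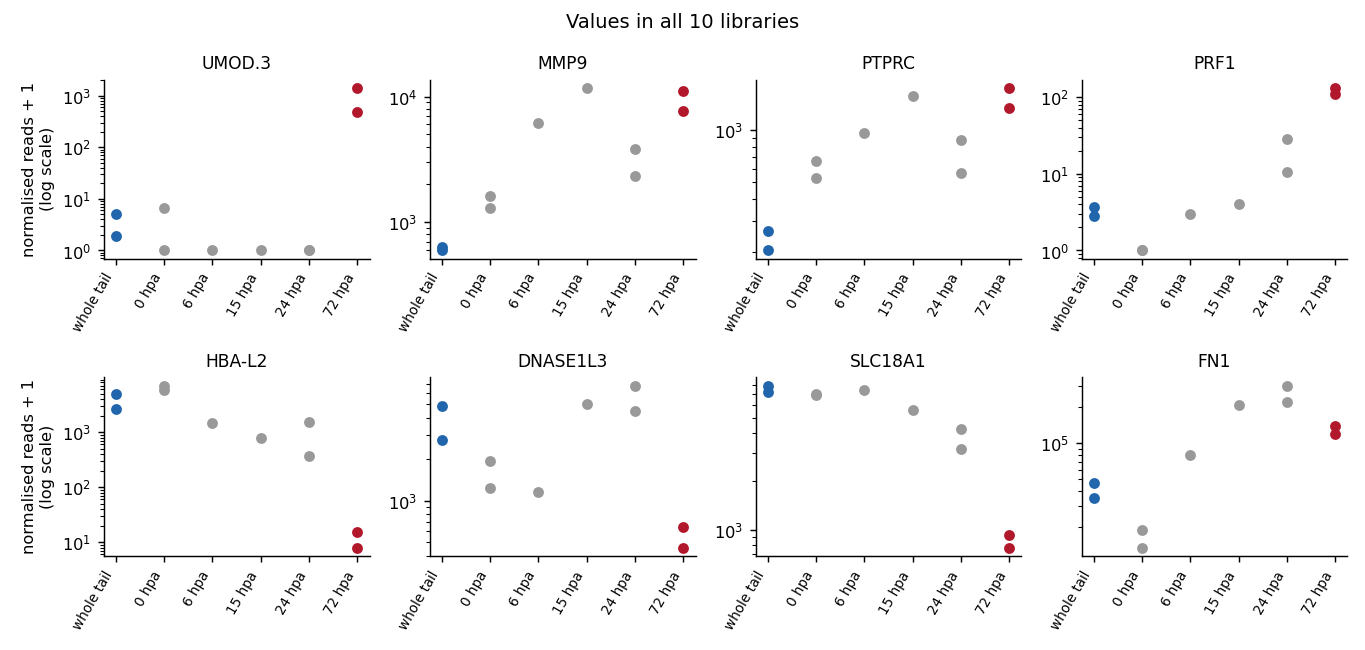
Normalised reads plus 1 (log axis) of 8 genes in each of the 10 libraries, from whole tail (blue) through 0, 6, 15 and 24 hpa (grey) to 72 hpa (red). UMOD.3 is high at 72 hpa alone, SLC18A1 and HBA-L2 are lowest at 72 hpa, and FN1 is highest at 24 hpa.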

How the data were processed

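Per the labels' protocols, total RNA went into Illumina TruSeq libraries. DESeq2, HTSeq, R 3.2.0, SAMtools 1.1, TopHat2 2.0.13 and Trim Galore 0.3.3 appear in the submitters' processing notes with no stated role. Genome build and annotation: not given in the sources used here; hence no coordinates. The authors deposited a normalised signal for each of 26550 genes in 10 libraries. Within a library all values were multiples of a fixed step (100% at a tolerance of 0.01), so whole reads could be recovered, and the steps matched DESeq2 size factors. Every row carried a gene name, and 41.8% of genes had a symbol.

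The test was limma 3.58.1 (R 4.3.3), with a trend of variance on mean, on log2(value + 1), a scale that understates the change of low genes. The fit took in all 10 libraries as 6 groups, leaving 4 residual degrees of freedom, and 17896 genes that reached 10 normalised reads in 2 or more libraries. A gene can pass this filter through the libraries of 1 group alone, as UMOD.3 did at 72 hpa. The direction of such a gene is then set by the filter. SE is that of the fit. A gene was called at a Benjamini-Hochberg adjusted p under 0.05 over all genes. On the recovered reads, edgeR 4.0.16 (quasi-likelihood, TMM) called 769 genes higher and 805 lower at 72 hpa, and DESeq2 1.42.0 was a further alternative. The fit was tested on simulated data for 72 hpa against whole tail (17599 genes, 50 changed at each size). Each gene was drawn independently, and only genes averaging at least 50 normalised reads were changed. Swings shared by many genes between replicates, as in muscle, were not simulated, so the rates below need not hold for these libraries. At 1, 2, 3 and 4 log2 units limma found 6%, 68%, 88% and 96% of the changed genes, with 13 false calls in 142; edgeR made 12 in 139 and DESeq2 67 in 215.

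Lists (45, with 1508 of their 1956 symbols in the table) are described by counts and medians, with no set test. The comparison, its gene lists and the naming rule were chosen with earlier results of these data known. The rule took the 15 largest rises and the 15 largest falls among symbols averaging at least 100 normalised reads in the higher group without overlap, up to 5 called members per list, a fixed panel (its TNC, COL1A1, PAX7 and ALB were not matched) and the 5 most abundant symbols of each group. Some genes that the rule takes are not reported here. Any gene outside the rule is a further called member of its list or is marked as picked with its values in view. Where a group held 3 reads or fewer, the ratio of reads per size factor is given with an exact 95% interval, or as a bound against 3 reads over the group. RefSeq (assembly UCB_Xtro_10.0) gave names to 871 of 2606 tested locus identifiers by gene ID. Replicates of a group differed beyond sampling noise (chi-square over its degrees of freedom between 87.4 and 197) and count as separate libraries. Alternatives varied the scaling, filter, pseudocount, tool and libraries fitted, thinned the reads to equal depth, added a replicate block or left out 1 library of a duplicated group. Leaving out a 0 or 24 hpa library changes the SE but not the log2 fold changes of 72 hpa against whole tail. Ranges of medians therefore rest on the fits without a 72 hpa or whole tail library.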

Additional observations from a re-analysis of the deposited data

How the results depend on the processing

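The 1663 genes called at 72 hpa against whole tail stayed within 1.5 times that number under both edgeR scalings, voom, TMM and CPM scaling, pseudocounts of 0.5 and 5, a filter of 50 reads, thinning, no variance trend and the 8 duplicated libraries. They numbered 3138 in DESeq2 (1648 shared), 610 with no filter, 1049 with the 4 libraries alone, and 233 to 1478 without 1 library. Genes called at 24 hpa against whole tail (198) numbered 1309 in DESeq2, 57 with no filter and 2 to 137 without 1 library. Genes called at 72 against 24 hpa (13) numbered 2 in edgeR, 539 in DESeq2, 27 with no filter, 45 with the replicate block and 1 to 64 without 1 library. Same-numbered libraries of 72 hpa and whole tail deviated with a correlation of -0.10 (-0.13 to 0.27 over all pairs of groups). The labels do not say whether such libraries share animals or a batch, and a correlation across genes cannot settle it. A fit with the replicate number as a block called 905 higher and 1035 lower. Among named genes that were not called, signs reversed for MYOD1 (0.0733 and 0.0779 in edgeR with TMM and with DESeq2 size factors, 0.0996 in DESeq2, 0.0474 with CPM scaling), MYLPF (-0.0616 and -0.0587 in edgeR, -0.0576 in DESeq2) and HOXA13 (-0.00299 in edgeR, -0.0112 with TMM scaling, -0.0339 thinned). Without 1 library the fitted values ran from -1.31 to 1.26 for MYOD1, -1.94 to 0.17 for MYF5, -1.28 to 1.14 for ACTC1, -1.42 to 1.51 for MYLPF, -0.18 to 0.82 for SOX2, -0.34 to 0.17 for EGR1, -0.36 to 0.37 for HOXA13 and -0.0424 to 0.32 for COX3. The cause was not tested. Depth limits low genes most in 72 hpa replicate 2, where 3 reads make 7.29 normalised reads.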

Other observations

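Some genes known from the ear and lateral line of vertebrates, most of them from sensory hair cells, were looked at singly. They come from no fixed list, were chosen after their values were seen, and were not tested as a group. OCM2, an oncomodulin, had 2223 and 3283 normalised reads at 72 hpa, against 11.1 and 59.7 in whole tail (log2 fold change 6.64, SE 1.48, adjusted p = 0.035, limma). OTOF (otoferlin), which triggers transmitter release in hair cells, had 983 and 715 at 72 hpa and 44.5 and 36.6 in whole tail (log2 fold change 4.34, SE 0.68, adjusted p = 0.013). OTOR (otoraplin), a gene of the ear that is not taken here as a hair cell gene, had 9443 and 8411 at 72 hpa and 1512 and 3070.4 in whole tail (log2 fold change 2.05, SE 0.39, adjusted p = 0.022). The unconventional myosins MYO3A and MYO7A of the hair bundle rose by 4.33 and 1.81, and the factor GFI1, which is also a leukocyte gene, rose by 3.31 (adjusted p = 0.03, 0.042 and 0.026). KCNA10, a potassium channel, had 54 reads over both 72 hpa libraries and none in whole tail, at least 16.1-fold higher when set against 3 reads over the whole tail group (adjusted p = 0.023). Other genes of hair cells were not called: ATOH1, the factor that specifies them, had 24.1 and 9.72 at 72 hpa and 0 and 1.36 in whole tail, and PCDH15, STRC and TMC1 had log2 fold changes of 1.35, 0.75 and -2.19 (adjusted p = 0.14, 0.32, 0.46 and 0.5). None of these values was set against a count of such cells.

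Several of the largest changes were in genes without a symbol. LOC101731845 had 8719 reads over both 72 hpa libraries and none in whole tail, at least 2600-fold higher when set against 3 reads over the whole tail group (limma adjusted p = 0.0019). LOC101732051 had 9106 and 6316 normalised reads at 72 hpa, 43.8 and 14.4 at 24 hpa and 4.64 and 8.14 in whole tail, and was higher at 72 hpa than at 24 hpa (log2 fold change 8.17, SE 0.65, adjusted p = 0.014). LOC100145533 had 66.2 and 107 at 72 hpa and 10618 and 5506 in whole tail (log2 fold change -6.49, SE 0.50, adjusted p = 0.0022). Among the 107 called loci that RefSeq names, epx (LOC100496213), the eosinophil peroxidase, had 14415 and 7643 at 72 hpa and 1212 and 970.1 in whole tail (log2 fold change 3.27, SE 0.35, adjusted p = 0.0047), and krt12.3 (LOC549413) had 9641 and 6146 at 72 hpa and 243776 and 165749 in whole tail (log2 fold change -4.71, SE 0.45, adjusted p = 0.0034). These loci were chosen after their values were seen.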
